A study of Homo sapiens with 6 samples.

Results

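The ARP2/3 complex is the machine that starts a new actin filament as a branch on the side of an existing filament. It consists of ARP2 and ARP3, which resemble actin and form the first step of the daughter filament, and of the subunits ARPC1 to ARPC5, which hold the pair together and bind the mother filament. The complex is nearly inactive until a nucleation-promoting factor of the WASP, WAVE or WASH families brings it an actin monomer. The WASP and WAVE families work downstream of small GTPases such as CDC42 and RAC1. In neurons branched actin fills growth cones and dendritic spines and drives endocytosis.

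Transcript levels of its subunits were examined in SH-SY5Y, an established human neuroblastoma cell line with sympathetic neuronal features. Cells were exposed to 3 µM of the organochlorine insecticide endosulfan for 24 h, a dose that the labels state as a part of the LC50, or were control cells, for which the labels name no vehicle. There were 3 endosulfan and 3 control arrays, all of total RNA from cells in MEM and F12 medium with serum, called biological replicates in the titles without a named culture or day, so p-values measure the spread between these arrays. Of the 10 genes of the complex considered, 9 had at least 1 probe set whose annotation names that gene alone, and these gave 19 of the 49293 probe sets tested. They are ARPC1A, ARPC1B, ARPC2, ARPC3, ARPC4, ARPC5, ARPC5L, ACTR3, which encodes ARP3, and its paralog ACTR3B. ACTR2, which encodes ARP2, had no such probe set and was not analysed here. The complex was chosen by the endosulfan and control values of these same arrays, so its differences between the groups are a description without tests of their own, and the limma counts and p-values printed beside them support nothing.

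Each value is a log2 intensity per probe set after RMA, which the authors computed, so a difference of 1 is a doubling of signal. Probe sets differ in how strongly they bind their target, and levels are therefore compared between arrays and not between subunits. All 19 probe sets had a mean above the array medians of 4.89 to 4.94, from 5.55 to 11.31. The cell line label was checked against markers of sympathetic neuroblasts, and 8 of 8 measured markers were above the array medians, among them HAND2 and PHOX2A. Markers of other cell types were mixed: 1 of 4 epithelial, 0 of 4 haematopoietic, 2 of 3 endothelial, 2 of 2 Schwann or glial and 1 of 4 fibroblast markers exceeded the array medians. The neuroblast markers averaged 7.72 to 13.2 over the arrays, and the 2 Schwann or glial markers 6.59 and 6.64. A level above the array medians thus does not by itself single out neuroblasts. The summed log2 level of the neuroblast markers was 87.7 to 88.3 in endosulfan arrays, against 89.9 to 90.6 in control arrays. The markers did not move together: ISL1 (-1.33), STMN2 (-1.05) and GATA3 (-0.35) had negative log2 fold changes, those of PHOX2A (0.27), DBH (0.14), TH (0.13) and CHGA (0.02) were positive, and HAND2 was at -0.01. The summed level of the fibroblast markers was 17.0 to 17.1 in endosulfan arrays, against 17.4 to 18.2 in control arrays, with COL1A2 at -0.46 and DCN at -0.50, but COL1A1 at 0.24 and LUM at 0.02. Their part in the differences that follow was not tested, and in bulk RNA fewer cells of a type and less RNA per cell cannot be told apart. Control 1 and endosulfan 1 were the extreme arrays: on the first principal component of all probe sets, with 63.9% of the variance, the endosulfan arrays were at 61.8, -1.81 and 33.4 and the control arrays at -71.6, -2.33 and -19.5. The bacterial poly-A spike-ins, which gauge the labelling reaction, were at 7.81, 7.73 and 8.80 in endosulfan arrays 1 to 3, against 6.13, 7.73 and 5.84 in control arrays 1 to 3. The GAPDH 3′ minus 5′ difference, a measure of RNA integrity, was 0.887, 0.818 and 0.819 in endosulfan arrays 1 to 3, against 0.807, 0.743 and 0.696 in control arrays 1 to 3, without overlap, and its part in the differences was not tested.

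The subunits did not share a direction. ARPC3 was lower in all 3 endosulfan arrays, to 0.41-fold and 0.48-fold of control on its 2 probe sets, whereas the other 8 subunit genes had log2 fold changes between -0.46 and 0.39 on all their probe sets. Of the 19 probe sets, 12 were on the higher and 7 on the lower side, and 9 differed by less than 0.2 on the log2 scale. The median log2 fold change of the 19 was 0.05, against 0.05 over all probe sets, and with each gene read from the brightest of its probe sets the median of the 9 genes was -0.05, against 0.05 over all 18132 genes. A difference of 0.5 or more in either direction was seen in 2 of the 19 probe sets, both of ARPC3, and in 9.11% of all probe sets, and in 1 of the 9 genes and 11.6% of all genes. With limma and a Benjamini-Hochberg adjusted p below 0.05 over all probe sets, 0 of the 19 passed, where 0.00811% of all probe sets did. The smallest adjusted p among the 19 was 0.215. At an unadjusted p below 0.05 the limma fit held 2 lower and 2 higher member probe sets, where 9.21% and 6.3% of all probe sets were lower and higher, or 15.5% in all. The groups did not overlap in 2 lower and 1 higher member probe sets, where 9.24% and 11.5% of all probe sets had that pattern, or 20.7% in all.

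**Figure D1:**
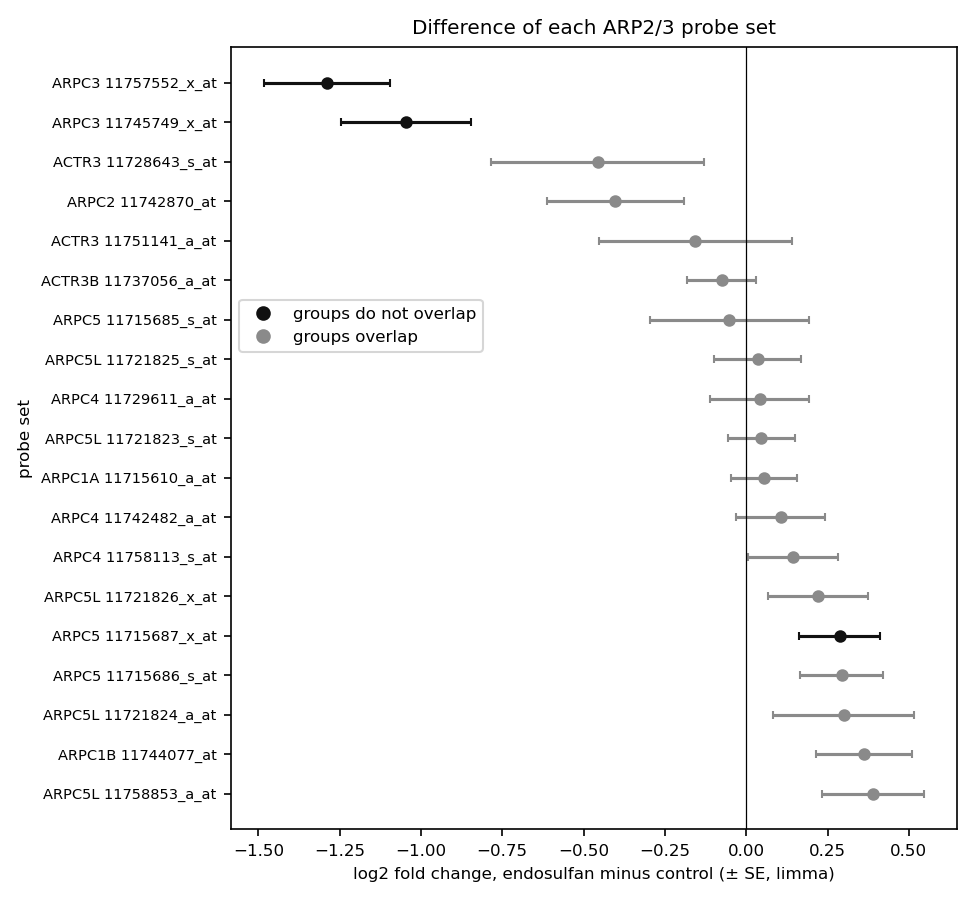
Log2 fold change of endosulfan against control (horizontal axis, points, with limma's SE as bars) for each of the 19 ARP2/3 probe sets, sorted with the lowest at the top; black points mark probe sets whose 3 endosulfan and 3 control arrays do not overlap. The 2 ARPC3 probe sets, at -1.29 and -1.05, lie apart from the remaining 17, which span -0.46 to 0.39.

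ARPC3 is the small subunit that packs against ARP3. Probe set 11757552_x_at was at 7.24, 7.08 and 7.28 in endosulfan arrays 1 to 3, against 8.95, 8.20 and 8.32 in control arrays 1 to 3. Probe set 11745749_x_at was at 7.19, 7.30 and 7.20 in the endosulfan arrays, against 8.76, 7.95 and 8.12 in the control arrays. On both, every endosulfan array was below every control array, and control 1 was the highest of the 6. The endosulfan arrays lay within 0.196 and 0.114 of each other on these probe sets, whereas the control arrays spanned 0.745 and 0.804. The first averaged 7.20 ± 0.10 in endosulfan arrays and 8.49 ± 0.40 in control arrays (SD, n = 3 each), so that its log2 fold change was -1.29 ± 0.19 (SE), or 0.409-fold. The second averaged 7.23 ± 0.06 in endosulfan arrays and 8.28 ± 0.42 in control arrays (SD, n = 3 each), so that its log2 fold change was -1.05 ± 0.20 (SE), or 0.484-fold. Lower log2 fold changes than these were found for 0.221% and 0.88% of all probe sets.

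The groups did not overlap on either ARPC3 probe set, so leaving out arrays could change the size of the difference but not its sign. Without endosulfan 1 the log2 fold changes of 11757552_x_at and 11745749_x_at were -1.31 and -1.03. Without control 1 they were -1.06 and -0.81, and without both arrays numbered 1 they were -1.08 and -0.79. Among control 2, endosulfan 1 and endosulfan 2, whose spike-in levels were nearly equal, they were -1.04 and -0.71. Control 2 is the only control array there, also where this setting is quoted below. Both ARPC3 probe sets carry the x_at suffix, which the array's maker gives to sets with probes that also match other sequences. ARPC5 probe set 11715687_x_at and ARPC5L probe set 11721826_x_at carry the same suffix. RefSeq lists 5 pseudogenes named after ARPC3, and among the other measured subunits 7 after ACTR3B, 4 after ARPC1A, 3 after ACTR3 and 1 after ARPC1B. How much of the signal such sequences give was not tested for any subunit.

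The promoter of ARPC3 is shown because this subunit had the largest differences of those measured. That of ARPC1A is shown beside it, since the endosulfan and control values of ARPC1A lay close together. Whether either promoter has a part in these values was not tested. Both are RefSeq windows of GRCh38.p14, from 250 bases before to 50 bases after the start site, 5′ to 3′ on the strand of the gene. ARPC3 lies on the minus strand at chr12:110450288-110450587 and ARPC1A on the plus strand at chr7:99325648-99325947. Capitals mark CCGGAAG, the core bound by ETS factors, on either strand, where the other strand reads CTTCCGG.
ARPC3: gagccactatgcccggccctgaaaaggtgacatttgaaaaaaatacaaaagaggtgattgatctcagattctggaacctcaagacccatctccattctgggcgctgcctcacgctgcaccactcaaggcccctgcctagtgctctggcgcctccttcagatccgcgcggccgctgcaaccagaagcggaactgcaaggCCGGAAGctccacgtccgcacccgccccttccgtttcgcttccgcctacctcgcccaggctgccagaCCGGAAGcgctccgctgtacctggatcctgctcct
ARPC1A: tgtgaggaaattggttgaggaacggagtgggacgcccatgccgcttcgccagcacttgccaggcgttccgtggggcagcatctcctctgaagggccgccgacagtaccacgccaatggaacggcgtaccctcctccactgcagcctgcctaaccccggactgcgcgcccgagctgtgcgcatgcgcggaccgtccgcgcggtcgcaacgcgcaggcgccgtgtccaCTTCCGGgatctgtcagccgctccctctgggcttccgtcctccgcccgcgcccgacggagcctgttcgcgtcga

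The ARPC3 window holds CCGGAAG 2 times, at bases -52 to -46 and 16 to 22 from the start site, and the ARPC1A window 1 time, at -24 to -18 on the opposite strand. RefSeq windows were found for 9 of the 10 genes, 12 windows in all, and 3 of the 12 hold CCGGAAG, which 10.3% of all 35116 promoter windows hold. The third is that of ACTR2. The GC box GGGCGG, bound by SP factors, is in 10 of the 12 windows, of 8 genes, and in 45% of all windows. AAGATGGC, a YY1 core, is in 4, namely the 3 windows of ACTR3 and that of ACTR3B, and in 2.89% of all. Windows of ACTR3 overlap, as do those of ARPC2, so the 4 windows with AAGATGGC hold 3 distinct sites in 2 genes, and the GC boxes are 19 distinct sites. The cAMP response element TGACGTCA is in 1, that of ACTR3B, and in 1.85% of all, and the EGR1 site GCGTGGGCG is in 0 of the 12 and in 0.795% of all. The motifs were searched on both strands without counting overlaps between different motifs, and were chosen after the windows had been read. A match describes letters in a window and not a bound site.

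**Figure D2:**
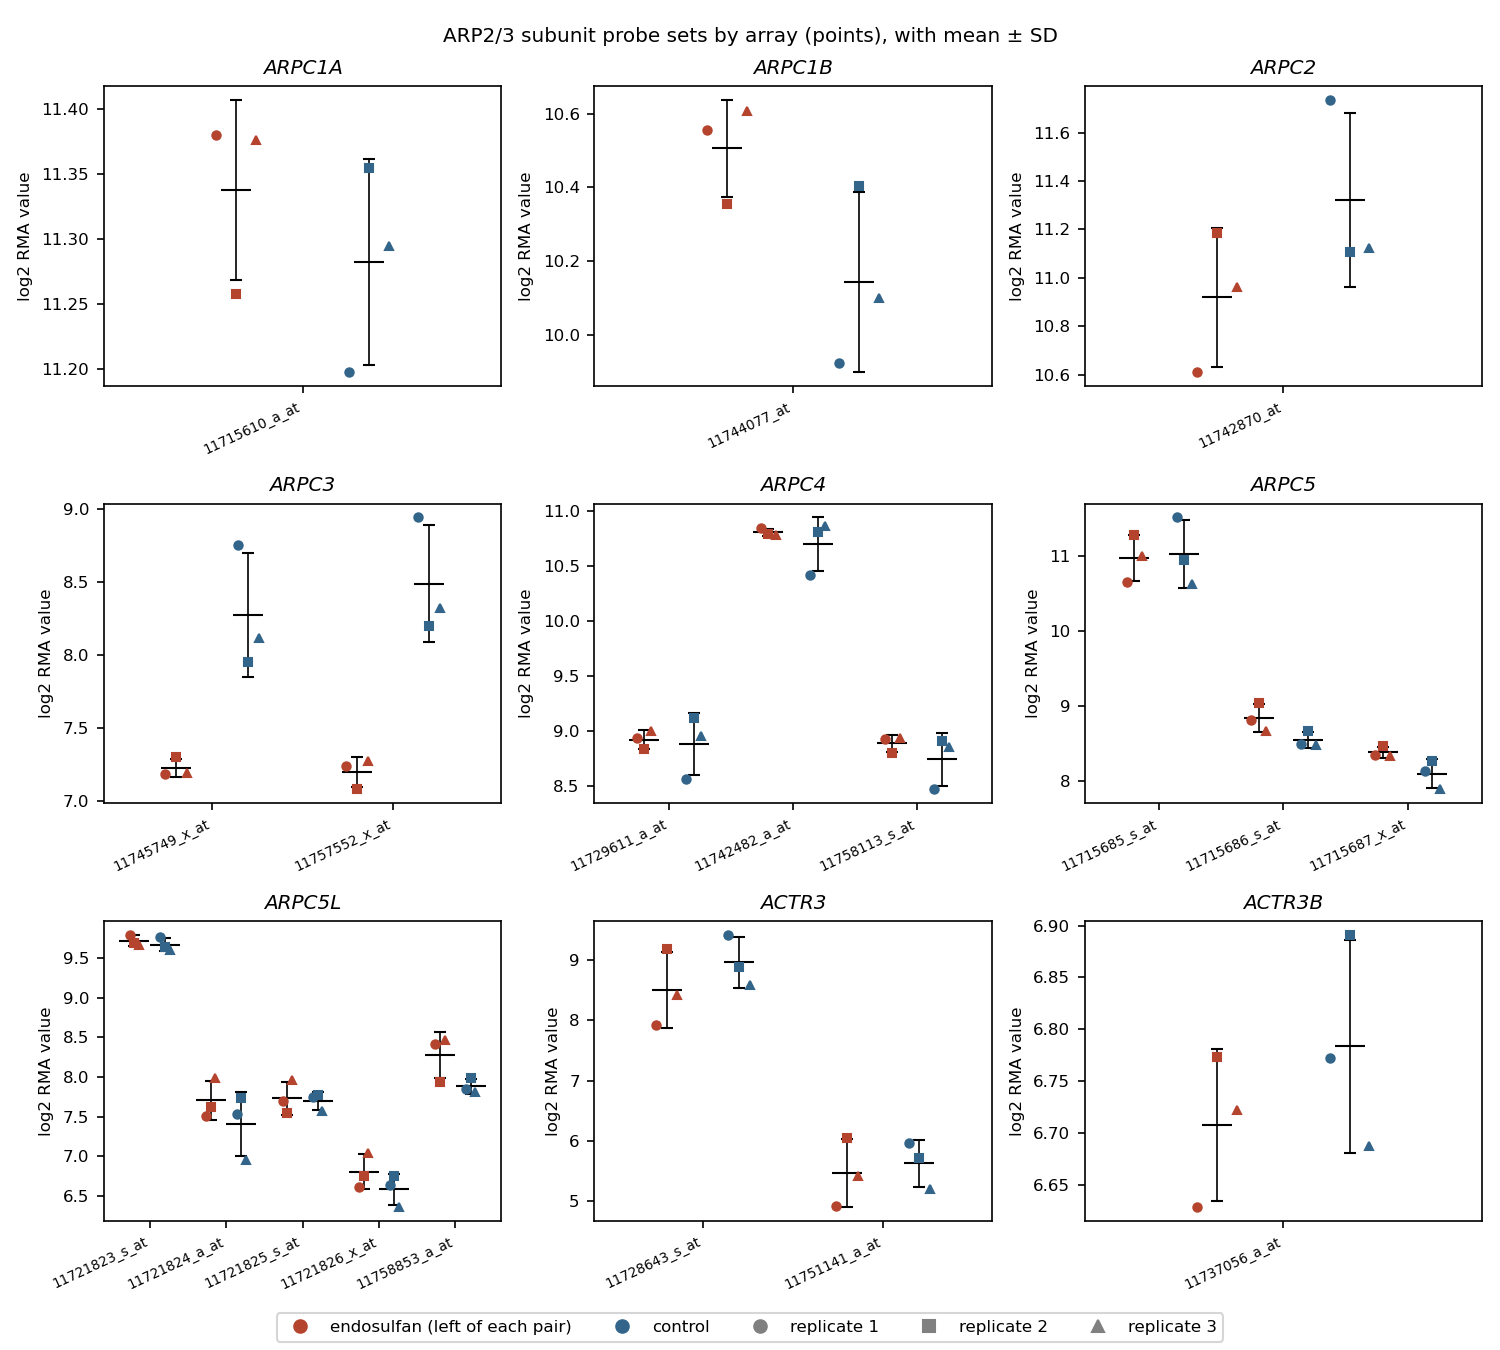
Log2 RMA value (vertical axis, own scale in each panel) of every probe set of the 9 ARP2/3 genes, with endosulfan arrays in red on the left and control arrays in blue on the right of each pair, 1 symbol shape per replicate number, and mean ± SD in black. In ARPC3 the endosulfan points lie near 7.2 and the control points at 7.95 or above, while in the other panels the groups lie close together or overlap, apart from ARPC5 probe set 11715687_x_at.

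The actin-related subunit ARP3, encoded by ACTR3, was at 7.91, 9.17 and 8.43 on probe set 11728643_s_at in endosulfan arrays 1 to 3, against 9.42, 8.89 and 8.58 in control arrays 1 to 3. On probe set 11751141_a_at it was at 4.93, 6.06 and 5.43 in the endosulfan arrays, against 5.96, 5.72 and 5.20 in the control arrays. The groups overlapped on both, endosulfan 1 was the lowest array on both, and endosulfan 2 lay above controls 2 and 3. The log2 fold changes were -0.46 ± 0.33 (SE) and -0.16 ± 0.30 (SE), and that of 11728643_s_at was 0.07 without both arrays numbered 1. The sign of 11751141_a_at also turned, to 0.11 without endosulfan 1 and 0.28 without both arrays numbered 1. ACTR3B, an ARP3 paralog found in brain, averaged 6.71 ± 0.07 in endosulfan arrays and 6.78 ± 0.10 in control arrays (SD, n = 3 each), with a log2 fold change of -0.08 ± 0.11 (SE) and overlapping groups.

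ARPC2 and ARPC4 form the core of the complex and its main contact with the mother filament. ARPC2 was at 10.61, 11.18 and 10.96 in endosulfan arrays 1 to 3, against 11.74, 11.11 and 11.12 in control arrays 1 to 3. Endosulfan 2 lay above controls 2 and 3, and control 1 lay above the rest. The log2 fold change was -0.40 ± 0.21 (SE). It was -0.20 without control 1 and -0.04 without both arrays numbered 1, so the value rests mainly on these 2 arrays.

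ARPC4 had 3 probe sets with log2 fold changes of 0.04, 0.11 and 0.14. Without control 1 these were -0.12, -0.03 and 0.0075. The first, 11729611_a_at, was at -0.21 in a fit that also held the spike-in level. The brightest, 11742482_a_at, was at 10.85, 10.79 and 10.78 in endosulfan arrays 1 to 3, against 10.42, 10.82 and 10.87 in control arrays 1 to 3. On each of the 3 probe sets control 1 was the lowest array, the opposite of its place in ARPC2 and ARPC3, and the endosulfan arrays lay within the range of the control arrays or close to it.

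ARPC1, a propeller-shaped subunit that contacts nucleation-promoting factors, comes as ARPC1A or ARPC1B. ARPC1B is best known from blood cells, where its loss causes an immune deficiency. ARPC1A averaged 11.34 ± 0.07 in endosulfan arrays and 11.28 ± 0.08 in control arrays (SD, n = 3 each), and its log2 fold change was 0.06 ± 0.10 (SE). ARPC1B was at 10.56, 10.36 and 10.61 in endosulfan arrays 1 to 3, against 9.92, 10.40 and 10.10 in control arrays 1 to 3. Its groups overlapped through endosulfan 2 and control 2, and the log2 fold change was 0.36 ± 0.15 (SE). Control 1 was again at one end, and the value was 0.25 without it and 0.06 in a fit that also held the spike-in level. It was 0.05 among the 3 arrays with nearly equal spike-in levels, of which control 2 was the only control array.

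ARPC5 tethers ARPC1 and ARP2 to the core and is replaced by its paralog ARPC5L in some complexes. The brightest ARPC5 probe set, 11715685_s_at, was at 10.66, 11.28 and 10.998 in endosulfan arrays 1 to 3, against 11.52, 10.95 and 10.63 in control arrays 1 to 3, with overlapping groups and a log2 fold change of -0.05 ± 0.24 (SE). Its sign turned without control 1, at 0.19. The other two ARPC5 probe sets had log2 fold changes of 0.29 ± 0.13 (SE) each. Of these, 11715687_x_at was at 8.34, 8.46 and 8.34 in endosulfan arrays, against 8.13, 8.27 and 7.89 in control arrays, and the groups did not overlap. Its log2 fold change was 0.13 in a fit that also held the spike-in level. ARPC5 was the 1 gene, of 5 with several probe sets, whose probe sets had both signs.

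ARPC5L had 5 probe sets with log2 fold changes from 0.04 to 0.39, and 3 of the 5 had the opposite sign in a fit that also held the spike-in level: 11721824_a_at was then at -0.22, 11721825_s_at at -0.19 and 11721826_x_at at -0.10. In the 3 arrays of nearly equal spike-in level, with control 2 as the only control array, these were at -0.17, -0.15 and -0.068. Without control 3, 11721824_a_at was at 0.07 and 11721825_s_at at -0.03. The brightest, 11721823_s_at, averaged 9.72 ± 0.07 in endosulfan arrays and 9.67 ± 0.08 in control arrays (SD, n = 3 each). The probe set with the largest difference, 11758853_a_at, was at 8.42, 7.94 and 8.46 in endosulfan arrays 1 to 3, against 7.85, 7.99 and 7.81 in control arrays 1 to 3. Endosulfan 2 lay below control 2 there, so the groups overlapped, as they did on all 5. The paralog pairs ARPC1A and ARPC1B, ARPC5 and ARPC5L, and ACTR3 and ACTR3B thus each had both groups within 0.5 of each other in the mean on every probe set.

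**Figure D3:**
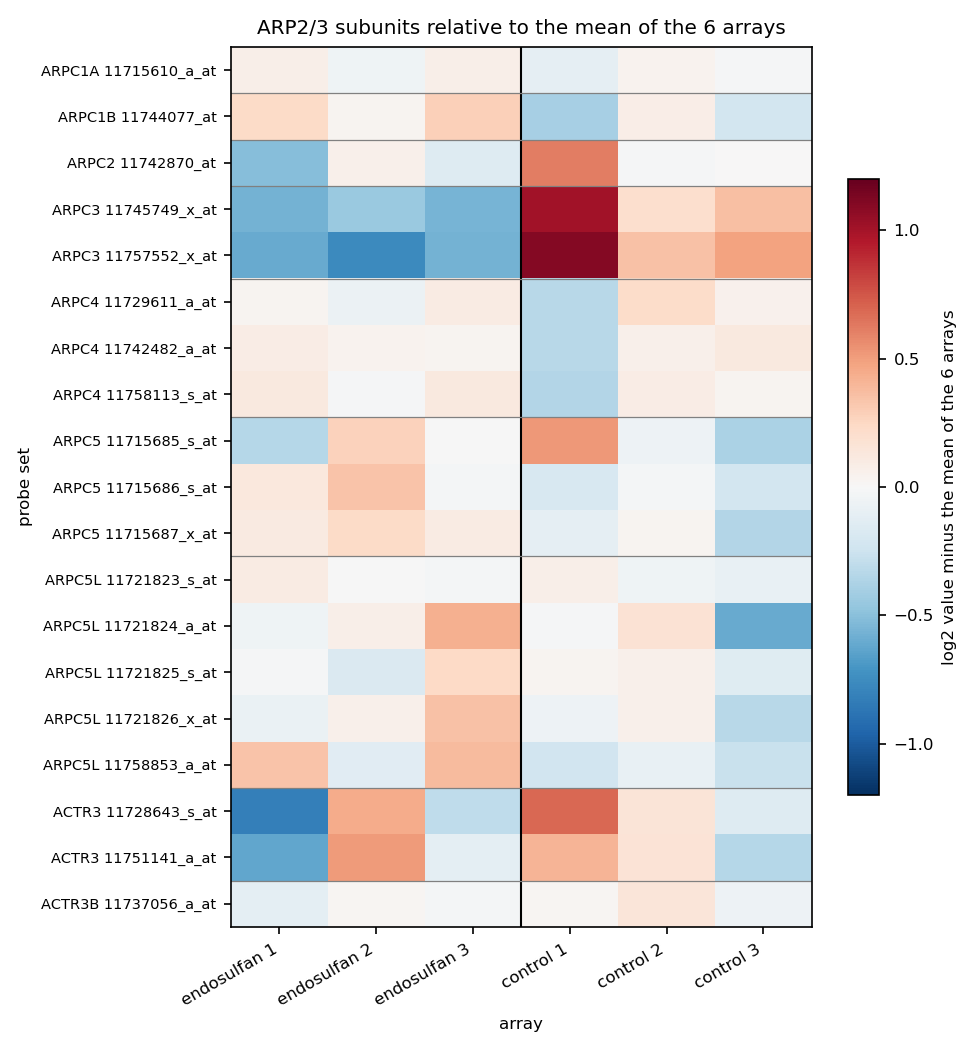
Log2 value of each ARP2/3 probe set (rows) in each array (columns, endosulfan left of the line, control right), relative to the mean of the 6 arrays; red is above and blue below that mean. ARPC3 separates the 2 groups, while control 1 is the highest array in 5 rows and the lowest in 5 others, and ACTR3 contrasts endosulfan 1 with endosulfan 2.

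The spread among the arrays differed by subunit. The control arrays spanned a wider range than the endosulfan arrays in 13 of the 19 probe sets, where 50.9% of all probe sets did so. Control 1 was the highest array in 5 and the lowest in 5 probe sets, 52.6% of the 19, where 55.3% of all probe sets had control 1 at an end. The mean of the 9 genes relative to the 6 arrays was -0.21, 0.01 and -0.08 in endosulfan arrays 1 to 3, against 0.24, 0.08 and -0.04 in control arrays 1 to 3, so the groups overlapped in it. The 5 genes most like this mean, by Pearson's r over the 6 arrays at gene level, were MBLAC2, MINDY3, HPS3, DCAF6 and HMGB2, with r from 0.990 to 0.995. There were 220 genes with r above 0.95 among 18123, and the points share the same 6 arrays, whose first principal component has control 1 and endosulfan 1 at its ends. The groups overlapped in all 5.

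Further genes of actin assembly were read from 8 lists with 84 genes, of which 77 were measured at gene level. Of these, 0 passed at a limma and Benjamini-Hochberg adjusted p below 0.05 over all genes, where 0.00552% of all genes did, and at an unadjusted p below 0.05 there were 4 higher and 17 lower, where 6.64% and 10.5% of all genes were higher and lower, or 17.1% in all. The groups did not overlap in 3 higher and 13 lower genes of the 77, where 12.4% and 10.2% of all genes had that pattern, or 22.6% in all. The smallest adjusted p among the 77 was 0.196. The genes named are the 3 with the smallest unadjusted p of each list, so each value describes the end of its list. Of the 24 genes so named, 20 had several probe sets and 10 had probe sets of both signs, the groups overlapped in 11, and 12 had a log2 fold change that moved by over 1.5 times when 1 array was left out. The medians of 6 of the 8 lists changed sign in at least 1 alternative, and those of the WAVE partners and of the actin and monomer-binding genes did not.

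Among 12 upstream GTPases and adaptors, with a median log2 fold change of -0.0042, 0 were higher and 3 lower at an unadjusted p below 0.05. Of all genes, 6.64% were higher and 10.5% lower at that threshold. RAC1, the GTPase that switches on the WAVE complex, averaged 11.33 ± 0.32 in endosulfan arrays and 12.05 ± 0.33 in control arrays (SD, n = 3 each), with a log2 fold change of -0.72. TIAM1, an exchange factor that loads RAC1 with GTP, was at 6.29 ± 0.40 in endosulfan arrays and 7.56 ± 0.53 in control arrays (SD, n = 3 each), or -1.27 as a log2 fold change, and WIPF2, which binds WASP proteins, was at -0.35. The groups did not overlap in any of these 3 genes. Each of the 3 had probe sets of both signs. Averaging the probe sets of a gene gave -0.57 for TIAM1, -0.52 for RAC1 and -0.10 for WIPF2. In a fit that also held the spike-in level RAC1 was at -0.37 and WIPF2 at -0.20.

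The nucleation-promoting factors themselves had 6 measured members and a median of -0.03, with 0 higher and 2 lower at an unadjusted p below 0.05. Of all genes, 6.64% were higher and 10.5% lower at that threshold. N-WASP, encoded by WASL, averaged 7.60 ± 0.71 in endosulfan arrays and 8.53 ± 0.38 in control arrays (SD, n = 3 each), or -0.93 as a log2 fold change, and WASF3, a WAVE protein, was at -0.48. Both had probe sets of both signs, and averaging the probe sets of a gene gave -0.37 for WASL and -0.14 for WASF3. Without endosulfan 1 WASL was at -0.55, and without control 1 WASF3 was at -0.30. WAS, the blood cell WASP, averaged 5.09 in endosulfan arrays and 5.04 in control arrays, slightly above the array medians, and had a log2 fold change of 0.06. The 7 measured partners of the WAVE regulatory complex, which holds WAVE inactive until RAC1 binds, had a median of -0.39, against 0.05 over all genes, with 0 higher and 2 lower at an unadjusted p below 0.05. Of these, NCKAP1 was at -0.80, CYFIP2 at -0.39 and CYFIP1 at -0.54, and the groups overlapped in all 3. Without control 1, CYFIP2 was at -0.25 and CYFIP1 at -0.33, without endosulfan 1 NCKAP1 was at -0.51, and CYFIP2 had probe sets of both signs, up to 0.24. The list mean relative to the 6 arrays was -0.34, 0.06 and -0.22 in endosulfan arrays 1 to 3, against 0.45, -0.02 and 0.07 in control arrays 1 to 3. Endosulfan 2 thus lay above control 2. The median was -0.17 without control 1. Among the 3 arrays with nearly equal spike-in levels, with control 2 as the only control array, the median was -0.09.

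The 4 measured WASH complex partners, which act on endosomes, had a median of -0.23, or 0.027 in a fit that also held the spike-in level. In the 3 arrays of nearly equal spike-in level, with control 2 as the only control array, the median was 0.035. At an unadjusted p below 0.05, 1 was higher and 1 lower, where 6.64% and 10.5% of all genes were higher and lower. WASHC2C was at -1.05, with groups that did not overlap, WASHC5 at -0.49, or -0.29 without control 1, and WASHC3 at 0.38. The 12 branch stabilisers, inhibitors and debranching factors had a median of 0.06, with 1 higher and 1 lower at an unadjusted p below 0.05. Coronins, which bind filaments and the ARP2/3 complex, made up all 3 genes named here. CORO2A was at -0.82, with probe sets up to 0.12, and averaging its probe sets gave -0.17. CORO1A was at 0.51, or 0.28 without control 1 and 0.09 in the 3 arrays of nearly equal spike-in level. CORO1B was at 0.47 with overlapping groups, or 0.23 without control 1, and its sign turned, to -0.13, in those 3 arrays.

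The 13 measured genes for actin, its monomer-binding proteins and capping protein had a median of -0.12, with 0 higher and 3 lower at an unadjusted p below 0.05. Of all genes, 6.64% were higher and 10.5% lower at that threshold. Beta-actin, ACTB, averaged 12.37 ± 0.03 in endosulfan arrays and 12.62 ± 0.11 in control arrays (SD, n = 3 each), or -0.25 as a log2 fold change. The thymosin TMSB4X, which sequesters actin monomers, was at -0.86, or -0.46 in a fit that also held the spike-in level. CAPZA1, a subunit of capping protein, was at -0.86, or -0.56 without endosulfan 1. The groups overlapped in CAPZA1, and its probe sets ran from -0.94 to 0.045. The 16 linear nucleators, which build unbranched filaments, had a median of -0.12, with 1 higher and 5 lower at an unadjusted p below 0.05. The formins FMNL2, FHOD3 and FMN2 were at -1.11, -0.67 and -0.57. Averaging the probe sets of a gene gave -0.55 for FMNL2, -0.54 for FHOD3, -0.20 for FMN2 and 0.0022 for the list median. FMN2 had probe sets of both signs, and FHOD3 was at -0.37 in the 3 arrays of nearly equal spike-in level, with control 2 as the only control array. The 7 measured actin-related proteins outside the complex had a median of 0.01, with 1 higher and 0 lower at an unadjusted p below 0.05. ACTR6, a nuclear actin-related protein of a chromatin remodeller, was at 1.36, ACTL6A, also of chromatin remodellers, at -1.03, and ACTR10, a dynactin subunit, at -0.96. The groups overlapped in ACTL6A and ACTR10, which were at -0.59 and -0.48 without endosulfan 1, and at -0.18 each without both arrays numbered 1. ACTR6 was at 0.57 in a fit that also held the spike-in level.

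**Figure D4:**
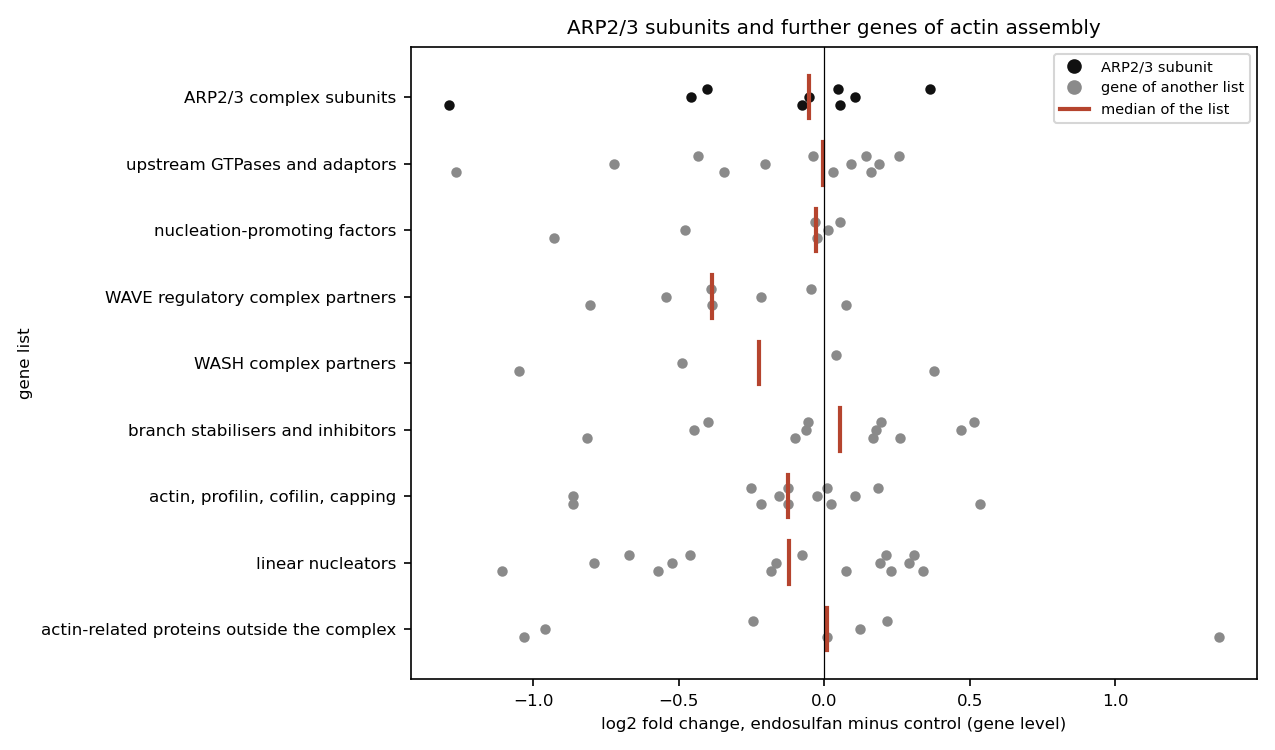
Log2 fold change of endosulfan against control at gene level (horizontal axis) for the 9 ARP2/3 genes in black and 77 further genes of actin assembly in grey, 1 row per list, with the median of each list as a red bar. ARPC3 is the lowest black point at -1.29, and the medians of the lists lie between -0.39 and 0.06.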

How the data were processed

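Total RNA of 6 samples was hybridised to 1-colour Affymetrix arrays. The authors deposited 1 table of log2 values, made with Affymetrix Expression Console and RMA per the submitters' processing notes; the notes name no version, option, genome build or filter. RMA equalises the distribution of the arrays, so a shift common to most transcripts is not visible. Of 49395 rows, 102 array control probe sets were set aside and 49293 were tested. The platform annotation named 1 gene for 44988, several for 1832 and none for 2473. No probe set was called above or below background, since only these summarised values were analysed, and the number of arrays limits the precision.

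Groups came from the agent label and replicate numbers from the titles. Endosulfan was compared with control in limma 3.58.1 (lmFit, eBayes; R 4.3.3), two-sided, with Benjamini-Hochberg adjustment over all 49293 probe sets, or over 18132 genes each represented by its brightest one-gene probe set. The code of the fit was checked on simulated data with noise drawn independently for each probe set or gene. The real arrays share a main axis of variation, so this check does not bear on error rates in these data. The subunits and gene lists were chosen with earlier results of these data known. Genes named outside the complex are the 3 with the smallest unadjusted p of each list, any past the threshold, and the 5 most like the subunits' mean. The 8 further lists were upstream GTPases, nucleation-promoting factors, WAVE partners, WASH partners, branch regulators, actin and its binding proteins, linear nucleators and other actin-related proteins. Alternatives were a replicate block, further quantile normalization, median centring, a level filter, a trend with robust moderation, array weights, no moderation, averaging the probe sets of each gene, unadjusted p, each array left out, and 3 settings chosen after the data were seen: both arrays numbered 1 left out, the spike-in level as a covariate, and 3 arrays with like spike-in levels. The last of these settings holds endosulfan 1, endosulfan 2 and control 2, its only control array. The mean spike-in level was 8.11 in endosulfan and 6.57 in control arrays, so this covariate cannot be fully told apart from the group. Numbers of same-numbered arrays were checked for pairing by the correlation of deviations from group means. Figures used matplotlib 3.10.9.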

Additional observations from a re-analysis of the deposited data

Results flagged for a closer look

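Spiked bacterial controls lie outside the comparison of subunits, and their means differed between the groups. For the poly-A spike-ins, 24 probe sets averaged 8.11 ± 0.60 in endosulfan arrays and 6.57 ± 1.02 in control arrays (SD, n = 3 each), a difference of 1.55 on the log2 scale with a two-sided exact permutation p of 0.2. The 18 probe sets of the hybridisation controls averaged 10.70 ± 0.19 in endosulfan arrays and 10.05 ± 0.29 in control arrays (SD, n = 3 each), a difference of 0.644 with an exact permutation p of 0.1, the smallest that 3 arrays against 3 can give. The GAPDH 3′ minus 5′ difference, a measure of RNA integrity, was 0.887, 0.818 and 0.819 in endosulfan arrays 1 to 3, against 0.807, 0.743 and 0.696 in control arrays 1 to 3, without overlap and with a two-sided exact permutation p of 0.1. For beta-actin it averaged 3.67 ± 0.10 in endosulfan arrays and 3.59 ± 0.07 in control arrays (SD, n = 3 each), with overlap and an exact permutation p of 0.3. On the spike-ins control 2 lay within the range of the endosulfan arrays. Their part in the values of the subunits was not tested beyond the settings with the spike-in level.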

How the results depend on the processing

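Across the alternatives run, no ARP2/3 probe set passed the adjusted threshold except with array weights, where 6 did and 14.4% of all probe sets did, with the largest weights on endosulfan 3 (5.43) and control 3 (2.20). These were both ARPC3 probe sets, lower, and the ARPC1B and 3 of the 5 ARPC5L probe sets, higher, at limma adjusted p from 0.0084 to 0.039. Without adjustment, 4 had a p below 0.05. The count was 0 without each array in turn. Of the 77 further genes, 35 passed with array weights, where 32.6% of all genes did, and 0 in the other settings run. The median over the 19 probe sets, 0.05, was -0.10 when spike-in level entered the fit, and from 0.01 to 0.10 with 1 array left out. In the 3 arrays of like spike-in level, with control 2 as the only control array, it was -0.068. The median over the 9 genes, -0.05, was 0.055 after averaging a gene's probe sets and -0.12 to 0.01 with 1 array left out. ARPC3 ranged over all alternatives from -1.43 to -1.04 and from -1.21 to -0.71 on its probe sets. With arrays left out its sign could not turn, since its groups did not overlap. The cause of these shifts was not tested. Deviations of same-numbered arrays from their group means correlated at -0.51, -0.40 and 0.05. With 3 arrays a group these correlations cannot tell whether same-numbered arrays shared a culture or day. With the replicate block 0 member probe sets passed, as without it. With 3 arrays a group the precision of these differences is limited, and no conclusion on single subunits is drawn from these counts.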

Other observations

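Probe sets related to the complex but outside its 9 measured genes showed small differences; they are named after their values were seen. The 3 probe sets shared by TTLL3 and the readthrough ARPC4-TTLL3 had log2 fold changes of 0.02, -0.08 and 0.07. ACTR3C, a short relative of ARP3, averaged 3.56 ± 0.27 in endosulfan arrays and 3.81 ± 0.17 in control arrays (SD, n = 3 each), both below the array medians. The 2 probe sets of the ARP2 pseudogene ACTR2P2 had log2 fold changes of 0.16 and 0.01, and their groups overlapped.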
